A study of Homo sapiens with 9 samples.

Results

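TXNIP, ARRDC4 and the hexose phosphate sensor known to act on them were followed in MDA-MB-231 cells, an established human triple-negative breast cancer line, after 24 h of 2-deoxyglucose (2-DG). The 7 genes were chosen by name from the 61552 genes listed in each library. They were TXNIP and ARRDC4, 2 further alpha-arrestins (ARRDC3 and ARRDC2), and the 3 sensor genes MLXIP (MondoA), MLXIPL (ChREBP) and MLX. All 7 passed the filter on low counts and were among the 16570 genes tested. The study treated wild-type cells with 2-DG at 10 or 20 mM, or with phosphate-buffered saline as the control. Each condition has 3 libraries, which give mRNA levels as FPKM, that is, counts scaled by gene length and library total. All groups are one cell line, and nothing in the labels says that the 3 libraries of a group came from separate cultures, so the p-values measure only the spread between these libraries.

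MondoA and ChREBP are basic helix-loop-helix leucine zipper factors that work as dimers with MLX. They stay largely outside the nucleus until hexose phosphates rise, then enter it and bind carbohydrate response elements, which are pairs of E-box-like sequences separated by 5 bases. TXNIP is the best-known target. Its protein slows glucose uptake by promoting internalisation of the glucose transporter GLUT1, and it binds thioredoxin. ARRDC4, its closest relative, also restrains glucose uptake. 2-DG is phosphorylated by hexokinases like glucose, but its phosphate is hardly used further in glycolysis.

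The upstream windows of TXNIP and ARRDC4, the 2 of the 7 genes with the largest changes, are shown because both hold letters like those that these factors are known to bind. They are the 250 bases before the RefSeq start (assembly GRCh38.p14), written 5′ to 3′ on the gene's strand. The TXNIP window is chr1:145996580-145996829 on the minus strand and the ARRDC4 window is chr15:97960453-97960702 on the plus strand. The last 21 bases of the first and the last 5 of the second lie inside the gene as GENCODE 29 draws it. Capitals mark the paired half-sites in TXNIP, the E-box CACGTG in ARRDC4, and the CCAAT boxes (CCAAT, or ATTGG on the other strand) in both.
TXNIP: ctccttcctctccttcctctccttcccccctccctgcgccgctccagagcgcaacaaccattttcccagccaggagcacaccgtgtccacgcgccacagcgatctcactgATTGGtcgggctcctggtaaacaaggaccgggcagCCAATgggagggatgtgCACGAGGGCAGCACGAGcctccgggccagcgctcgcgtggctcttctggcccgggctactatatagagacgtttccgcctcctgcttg
ARRDC4: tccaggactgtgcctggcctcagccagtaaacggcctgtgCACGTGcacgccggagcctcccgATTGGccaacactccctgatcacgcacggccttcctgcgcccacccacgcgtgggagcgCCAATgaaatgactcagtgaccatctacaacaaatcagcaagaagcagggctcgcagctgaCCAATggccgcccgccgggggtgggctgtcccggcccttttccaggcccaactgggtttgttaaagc
The paired half-sites (CACGNG, any 5 bases, then CACGNG, searched on both strands) spanned positions -88 to -72 from the TXNIP start and lay downstream of 2 CCAAT boxes, from -140 to -136 and from -105 to -101. Both half-sites of a pair had to match on the same strand. Pairs with half-sites on opposite strands were not searched for, so every count of paired half-sites here leaves them out. E-boxes and paired half-sites overlap in letters, since CACGTG also reads as a half-site. The TXNIP window held no E-box. The ARRDC4 window held 1 E-box, from -210 to -205, no paired half-sites and 3 CCAAT boxes. Among 35116 RefSeq windows of this length, 0.0456% held paired half-sites, 6.35% held an E-box, 9.53% held at least 2 CCAAT boxes and 2.93% held at least 3. CCAAT boxes were searched after these sequences had been seen. Among the other 5 genes, MLX had an E-box from -50 to -45, and the windows of ARRDC3, ARRDC2, MLXIP and MLXIPL held neither an E-box nor paired half-sites. A second RefSeq window was listed for TXNIP, ARRDC3 and ARRDC2, and none of these held either motif. A single CCAAT box stood in the windows of MLXIP and MLX, in the first ARRDC3 window and in the second ARRDC2 window.

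The comparison of each 2-DG dose with the control asks how the transcripts of the sensor and of its target arrestins changed in cells given 2-DG. TXNIP and ARRDC4 rose at both doses. ARRDC2 rose by a smaller factor at both doses, and ARRDC3 passed the test at 20 mM and not at 10 mM. None of the sensor genes MLXIP, MLXIPL and MLX passed the test at either dose. At 10 mM 2-DG, 3 of the 7 genes were called higher and 0 lower by limma with Benjamini-Hochberg adjusted p under 0.05, against 12.1% of all genes tested called higher and 17.5% called lower. At 20 mM, 4 were called higher and 0 lower, against 15.4% and 21.6% of all genes tested. The median log2 fold change of the 7 genes was 0.26 at 10 mM and 0.38 at 20 mM, beside -0.01 and -0.02 over all genes tested. The thresholds in the study's methods were a change of more than 1 in log2, up or down, with an unadjusted p under 0.05. They were applied here to the limma fit on log2(FPKM + 1), not to the study's own DESeq2 fit. By them TXNIP and ARRDC4 were the 2 members called higher at each dose. Of all genes tested, 0.579% were called higher at 10 mM and 0.966% at 20 mM. Adding 1 FPKM shrinks the fold changes of low genes, so these shares are not those of a fit to counts. Counted by libraries alone, 3 members lay entirely above and 1 (MLX) entirely below the control at 10 mM, against 17.8% and 22.7% of all genes tested. At 20 mM these were 4 members above and 1 (MLX) below, against 23.3% and 29.9%.

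**Figure D1:**
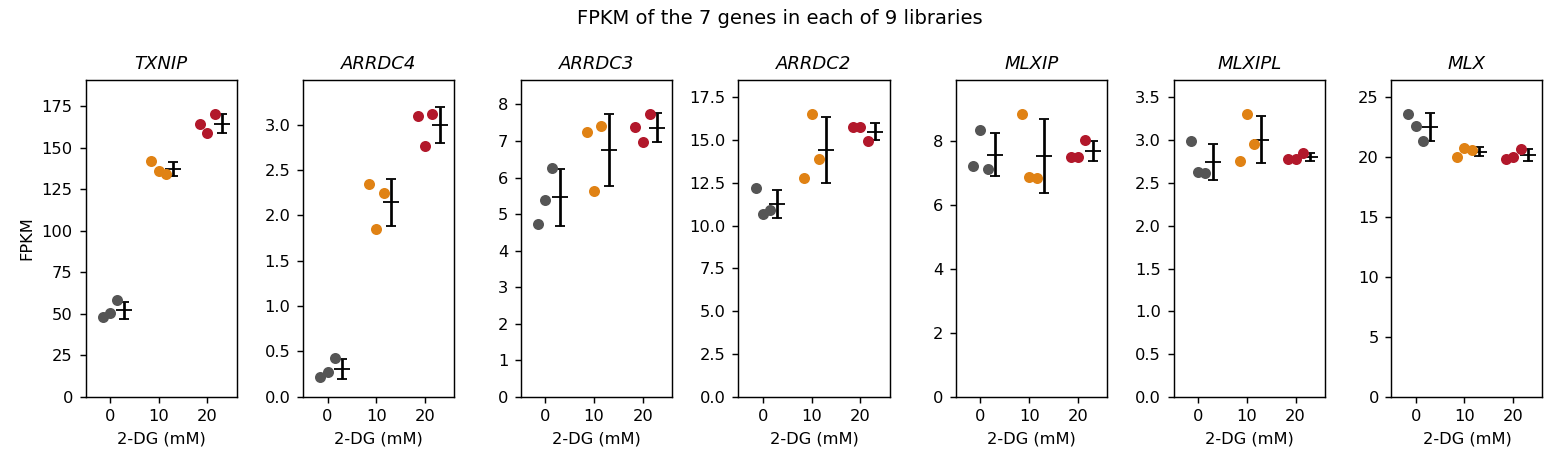
FPKM of the 7 genes in the 9 libraries by 2-DG concentration (0 is the control), with a separate axis starting at 0 for each gene. Points are libraries, and the bars beside them are the mean and SD of 3. TXNIP and ARRDC4 lie above the control at both doses, and their 20 mM libraries lie above the 10 mM ones, a difference that did not pass the test, while MLXIP and MLXIPL overlap in all groups.

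TXNIP (ENSG00000265972, GRCh38 chromosome 1, 145992435 to 145996600, minus strand, protein-coding) was the most abundant of the 7 genes in every library. Its FPKM was 47.9, 50.4 and 58.1 in the control libraries, 142, 136 and 134 at 10 mM 2-DG and 165, 159 and 171 at 20 mM. Each treated library was above every control library, and each 20 mM library was above every 10 mM library. Mean FPKM was 137 ± 4.30 (SD, n = 3) at 10 mM and 165 ± 5.89 at 20 mM against 52.1 ± 5.31 without 2-DG, which is 2.64-fold and 3.16-fold the control. On the log2(FPKM + 1) scale, where every fold change below stands unless a ratio of means is named, the change was 1.39 (SE 0.07, limma adjusted p = 2.65e-06) at 10 mM and 1.65 (SE 0.07, limma adjusted p = 5.08e-07) at 20 mM. By that fold change TXNIP was number 31 from the top among the genes tested at 10 mM and number 25 at 20 mM. Ordered by FPKM within a library, TXNIP was between number 721 and 928 of all listed genes in the control libraries, between 223 and 280 at 10 mM and between 193 and 219 at 20 mM.

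ARRDC4 (ENSG00000140450, GRCh38 chromosome 15, 97960698 to 97973838, plus strand, protein-coding) started from a far lower level. Its FPKM was 0.215, 0.275 and 0.424 in the control libraries, 2.34, 1.85 and 2.24 at 10 mM and 3.09, 2.77 and 3.12 at 20 mM. The 3 groups did not overlap. Reads recovered from the FPKM steps show the counts behind these values, which were 31, 41 and 59 in the control libraries, 334, 307 and 313 at 10 mM and 389, 447 and 419 at 20 mM. Mean FPKM was 2.14 ± 0.259 (SD, n = 3) at 10 mM and 2.99 ± 0.197 at 20 mM against 0.305 ± 0.107 without 2-DG. The ratio of means was 7.04-fold at 10 mM and 9.83-fold at 20 mM, or 2.82 (SE 0.31) and 3.30 (SE 0.30) in log2. At 20 mM the summed reads, 1255 against 131, gave a log2 ratio with a 95% exact interval of 3.04 to 3.57, which covers counting error only. The limma fold change of 1.27 (adjusted p = 1.75e-05) at 10 mM and 1.62 (adjusted p = 2.27e-06) at 20 mM is smaller because the pseudocount of 1 exceeds the control level. With limma-voom on the recovered reads, which adds less than 1 read to each count instead of 1 FPKM, the log2 fold change was 2.85 and 3.34.

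The proportion of TXNIP to ARRDC4 was also compared between the groups. The ratio of TXNIP to ARRDC4 FPKM was 223, 183 and 137 in the control libraries, 60.8, 73.5 and 59.8 at 10 mM and 53.3, 57.4 and 54.7 at 20 mM. The control libraries stood apart from all treated ones, and the ratio's log2 was lower by 1.46 at 10 mM and by 1.69 at 20 mM in the means (two-sided exact permutation p = 0.1 each, the smallest that 3 against 3 allows). The control ratio rests on the 31 to 59 reads of ARRDC4 and was the most scattered of the 3. TXNIP still made up most of the alpha-arrestin transcripts. Of the summed FPKM of the 5 alpha-arrestins TXNIP and ARRDC1 to ARRDC4, its share was 57.3%, 59.1% and 63.7% in the control, 78.3%, 75.6% and 76.9% at 10 mM and 79.2%, 78.6% and 79.1% at 20 mM, again with no overlap between groups (two-sided exact permutation p = 0.1 for each pair of groups).

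**Figure D2:**
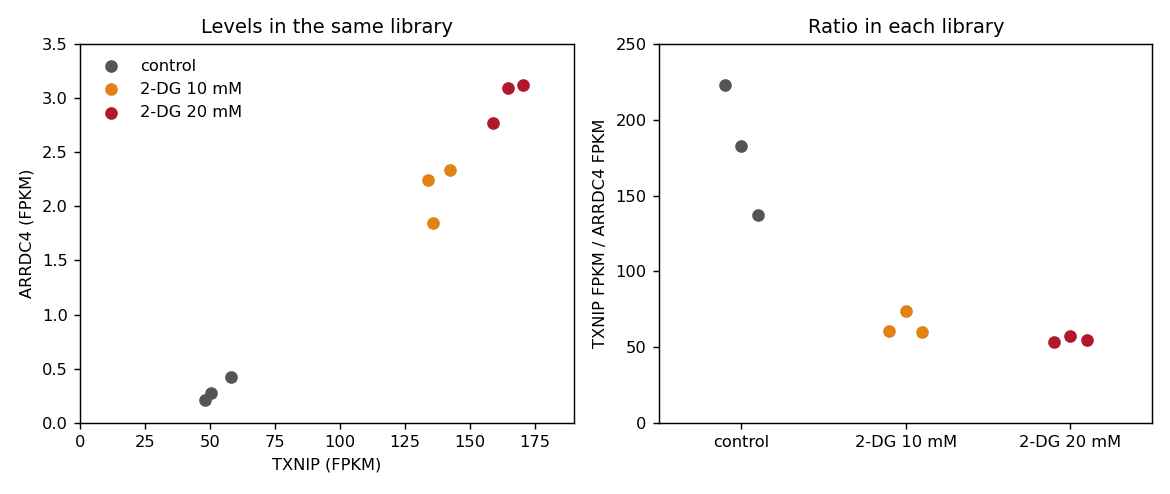
Left, ARRDC4 FPKM against TXNIP FPKM, a point for each of the 9 libraries coloured by group. Right, the TXNIP to ARRDC4 ratio of FPKM by group. The 3 control points lie at the bottom left with ratios between 137 and 223, and the 6 treated points lie at the top right with ratios between 53.3 and 73.5.

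ARRDC3 (ENSG00000113369, GRCh38 chromosome 5, 91368724 to 91383359, minus strand, protein-coding) encodes an adaptor that links membrane cargo to NEDD4-type ubiquitin ligases. Its FPKM was 4.72, 5.39 and 6.26 in the control libraries, 7.24, 5.63 and 7.42 at 10 mM and 7.38, 6.96 and 7.75 at 20 mM. At 10 mM 1 library lay within the control range, and at 20 mM all 3 lay above it. The mean was 1.24-fold the control at 10 mM (log2 fold change 0.26, limma adjusted p = 0.112) and 1.35-fold at 20 mM (0.38, limma adjusted p = 0.0262). The 20 mM call was lost without control replicate 1 (0.29), control replicate 2 (0.38), 20 mM replicate 1 (0.38) or 20 mM replicate 3 (0.35), and the 10 mM change passed (0.37, limma adjusted p = 0.0246) without 10 mM replicate 2. The antisense gene ARRDC3-AS1 shares 145 exon bases with ARRDC3, but had only 1 to 8 reads per library.

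ARRDC2 (ENSG00000105643, GRCh38 chromosome 19, 18001132 to 18014102, plus strand, protein-coding), a related arrestin, had an FPKM of 12.2, 10.7 and 10.9 in the control libraries, 12.8, 16.5 and 13.9 at 10 mM and 15.8, 15.8 and 14.9 at 20 mM. Neither treated group overlapped the control. The mean was 1.28-fold the control at 10 mM (log2 fold change 0.32, limma adjusted p = 0.0232) and 1.38-fold at 20 mM (0.43, limma adjusted p = 0.00479). The 10 mM call was lost without control replicate 2 (adjusted p = 0.077) or control replicate 3 (adjusted p = 0.0693) and in the fit to these 2 groups alone (adjusted p = 0.0619).

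ARRDC1, an alpha-arrestin of the plasma membrane and of released vesicles, had a mean FPKM of 17.5 ± 1.82 (SD, n = 3) in the control and 18.1 ± 1.10 at 20 mM (log2 fold change 0.05, limma adjusted p = 0.736). ARRDC5 had 1 read in 1 of the 9 libraries and was listed at 0 in the others. Of the beta-arrestins, which end signalling by G protein-coupled receptors, ARRB2 fell from 8.93 to 5.03 FPKM at 20 mM (log2 fold change -0.72, limma adjusted p = 0.000216), and ARRB1 did not pass (-0.20, limma adjusted p = 0.209). At each dose 0 of these 3 other arrestins tested were called higher and 1 was called lower. Of all genes tested, 12.1% were called higher and 17.5% lower at 10 mM, and 15.4% and 21.6% at 20 mM.

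The sensor genes did not pass the test at either dose. MLXIP (ENSG00000175727, GRCh38 chromosome 12, 122078722 to 122147347, plus strand, protein-coding), which encodes MondoA, had an FPKM of 7.22, 8.34 and 7.13 in the control libraries, 8.85, 6.88 and 6.86 at 10 mM and 7.50, 7.50 and 8.04 at 20 mM. All 3 groups overlapped. Its log2 fold change at 20 mM was 0.02, with a 95% interval of -0.20 to 0.25 (limma adjusted p = 0.885). MLXIPL (ENSG00000009950, GRCh38 chromosome 7, 73593194 to 73624543, minus strand, protein-coding), which encodes ChREBP, the form known best from liver and fat, had an FPKM of 2.99, 2.63 and 2.62 in the control libraries, 2.76, 3.31 and 2.95 at 10 mM and 2.78, 2.78 and 2.85 at 20 mM. These groups overlapped as well, and the log2 fold change at 20 mM was 0.02, with a 95% interval of -0.17 to 0.21 (limma adjusted p = 0.869). In every library the MLXIP level was at least 2.08 times and at most 3.21 times the MLXIPL level, both per gene length.

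MLX (ENSG00000108788, GRCh38 chromosome 17, 42567068 to 42573239, plus strand, protein-coding), the shared dimer partner, had the highest level of the 3 sensor genes. Its FPKM was 23.6, 22.6 and 21.3 in the control libraries, 20.1, 20.8 and 20.6 at 10 mM and 19.8, 20.0 and 20.7 at 20 mM. All treated libraries were below all control libraries. The log2 fold change was -0.13 at 10 mM (95% interval -0.25 to -0.01, limma adjusted p = 0.103) and -0.15 at 20 mM (95% interval -0.27 to -0.03, limma adjusted p = 0.0556), and without control replicate 3 the latter passed (-0.19, limma adjusted p = 0.0353). With upper-quartile scaling the 20 mM value was -0.06. MLX shares 770 exon bases with PSMC3IP on the opposite strand, whose mean FPKM fell from 8.92 to 5.08 at 10 mM and 4.39 at 20 mM (log2 fold change -0.89 at 20 mM, limma adjusted p = 0.000156). The sources used here do not say whether counting used the strand, so reads of the overlap cannot be told apart and the MLX values are uncertain by that amount.

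**Figure D3:**
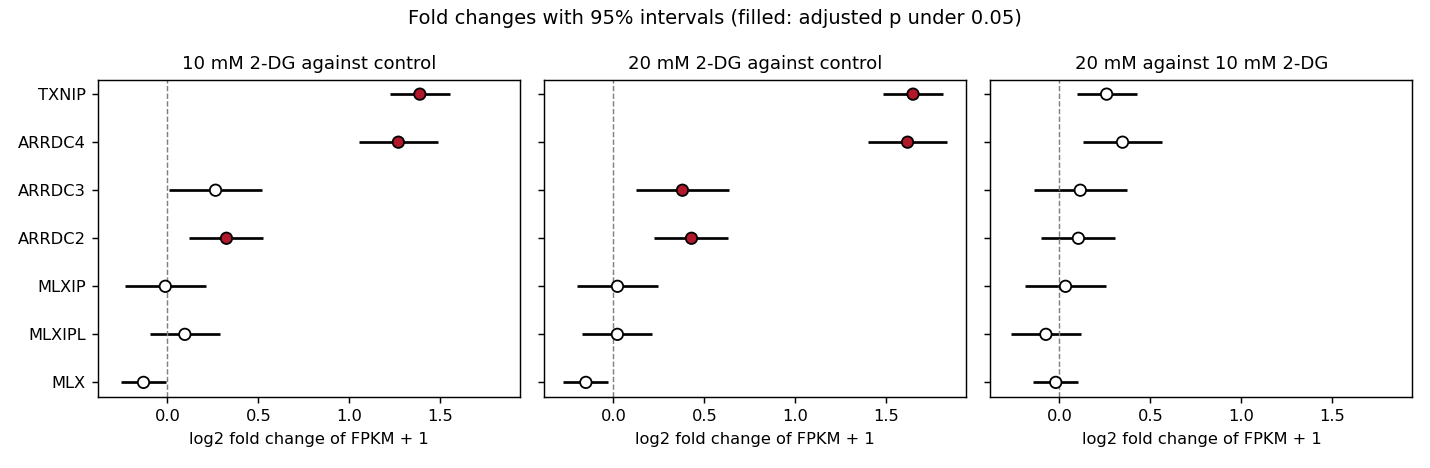
Log2 fold changes of FPKM + 1 for the 7 genes (rows) in the 3 comparisons (panels). Points are limma estimates, lines are 95% intervals, and filled points have an adjusted p under 0.05. TXNIP and ARRDC4 lie between 1.27 and 1.65 in both comparisons with the control, and no point is filled between the doses.

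The comparison of 20 mM with 10 mM asks whether the higher dose added to the change. No gene was called, with 0% of all genes tested called higher and 0% called lower by limma's adjusted p, while 1140 of the 16570 had an unadjusted p under 0.05. Limma-voom on the recovered reads also called 0. Without 10 mM replicate 1 limma called 1 gene higher and 3 lower, with no filter on low values it called 0 higher and 3 lower, and the study's thresholds gave 1 higher, none of them a member. TXNIP and ARRDC4 were the 2 members with an unadjusted p under 0.05, with 20 mM above 10 mM. The log2 fold change was 0.26 for TXNIP (limma adjusted p = 0.424) and 0.35 for ARRDC4 (limma adjusted p = 0.42), and for both genes the libraries of the doses did not overlap. Over all genes tested, 4.71% had every 20 mM library above every 10 mM library and 7.14% had every one below. The other 5 genes had adjusted p-values of at least 0.921. Of the difference in mean FPKM between 20 mM and the control, 10 mM reached 75.8% for TXNIP, 68.4% for ARRDC4, 68.5% for ARRDC3 and 74.5% for ARRDC2. Both dose comparisons share the control libraries, and these shares carry the control's error.

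Per gene length, the control order was TXNIP, MLX, ARRDC2, MLXIP, ARRDC3, MLXIPL and ARRDC4, and no neighbours in it overlapped. At 10 mM the order was the same, but the libraries of MLXIP and ARRDC3 overlapped. At 20 mM ARRDC4, at 2.99 FPKM, stood above MLXIPL, at 2.80 FPKM, with overlapping libraries, and MLXIP and ARRDC3 overlapped again. ARRDC4 was thus the lowest of the 7 in all control and 10 mM libraries.

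Other genes known to answer to carbohydrate through these sensors moved in both directions. At 20 mM, 5 of the 14 tested were called higher and 8 lower, beside 15.4% and 21.6% of all genes tested. The median of the list was -0.32 in log2. At 10 mM, 2 were called higher and 6 lower, beside 12.1% and 17.5%. KLF10, a transcription repressor that is induced with TXNIP in many cells, rose from 13.4 ± 0.544 FPKM (SD, n = 3) to 25.7 ± 2.86 at the lower dose and 25.3 ± 1.73 at the higher (log2 fold change 0.87 at 20 mM, limma adjusted p = 4.42e-05). RGS16, a G protein regulator, was called higher at 20 mM (0.33, limma adjusted p = 0.00148) at a level of only 0.385 FPKM. There the ratio of means, which the pseudocount does not shrink, was 3.84-fold, or 1.94 (SE 0.57) in log2. That ratio is imprecise, since it rests on 96 summed reads against 26 in the control, where single libraries had 2 to 13. The glycolytic enzyme LDHA fell from 377 to 273 FPKM at 20 mM (-0.47, limma adjusted p = 0.000371), and the lipase gene PNPLA3 fell from 1.82 to 0.657 FPKM (-0.77, limma adjusted p = 0.00112). Those called lower also included FASN, ACACA, SCD and ELOVL6, which make fatty acids, with log2 fold changes between -0.58 and -0.31, and KHK (-0.63), which phosphorylates fructose. The other genes called higher were PFKFB3, PPP1R3B and BHLHE40, between 0.27 and 0.30, and these names from FASN on lie outside the rule for named genes and were chosen after their values were seen.

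Enzymes that make or use hexose phosphates, the compounds that the sensor answers to, moved in both directions as well. HKDC1, a hexokinase-like enzyme, rose from 5.05 ± 0.882 FPKM (SD, n = 3) to 17.1 ± 2.93 at 10 mM and 21.0 ± 1.78 at 20 mM (log2 fold change 1.87, limma adjusted p = 6.57e-06). HK2, the inducible hexokinase, fell from 22.6 ± 3.13 FPKM to 13.7 ± 0.213 at 20 mM (-0.67, limma adjusted p = 0.00541). HK2 is also in the list of carbohydrate response genes above and is counted as lower in both lists. HK1, the hexokinase with the highest level in the control, rose slightly at 20 mM (0.20, limma adjusted p = 0.0148). Over the 9 genes tested of this list, 2 were called higher and 3 lower at 20 mM, beside 15.4% and 21.6% of all genes tested. At 10 mM these were 1 and 3, beside 12.1% and 17.5%.

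Genes of the thioredoxin system and of TXNIP partners had log2 fold changes of FPKM + 1 between -0.46 and 0.41 at 20 mM. TXN, the thioredoxin that TXNIP binds, had 402 FPKM in the control and 465 at 20 mM (log2 fold change 0.21, limma adjusted p = 0.122), so its transcript was above that of TXNIP in each group mean. TXNRD1, its reductase in the cytosol, was called higher at 20 mM (0.41, limma adjusted p = 0.0448) and TXNRD3, another reductase, was called lower (-0.46, limma adjusted p = 0.00285). TXNRD3 was at 1.01 FPKM in the control, where the pseudocount shrinks the change, and its ratio of means was 0.450-fold, or -1.15 in log2. SLC2A1, which encodes the GLUT1 transporter that TXNIP removes from the cell surface, fell from 94.6 ± 7.95 FPKM (SD, n = 3) to 70.3 ± 7.70 at 10 mM and 73.4 ± 2.10 at 20 mM (-0.36 at 20 mM, limma adjusted p = 0.00949). DDIT4, an inhibitor of mTORC1 that forms a complex with TXNIP, did not pass the test (-0.17, limma adjusted p = 0.159). In this list of 8 tested genes, 1 was called higher and 2 lower at 20 mM, and 0 and 2 at 10 mM. For this list and the next 2, the shares of all genes tested were 15.4% higher and 21.6% lower at 20 mM. At 10 mM they were 12.1% and 17.5%. Of 6 tested subunits of AMPK, the kinase that marks TXNIP protein for degradation, 0 were called in either direction at either dose by limma. At 20 mM 3 had an unadjusted p under 0.05, PRKAB1 (-0.19), PRKAB2 (0.29) and PRKAG1 (0.10). PRKAG1 was at 0.0840 FPKM in the control, where the pseudocount shrinks the change. Its ratio of means at 20 mM was 1.95-fold, on 70 reads against 37. Of 9 NEDD4-type ubiquitin ligases, which alpha-arrestins recruit, SMURF1 was called higher (0.22, limma adjusted p = 0.0146) and SMURF2 lower (-0.37, limma adjusted p = 0.00726) at 20 mM.

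MLX also dimerises with some members of the MAX network, which binds the same E-box. Of the 9 network genes tested, 4 were called higher and 1 lower at 20 mM, beside 15.4% and 21.6% of all genes tested. At 10 mM these were 3 and 1, beside 12.1% and 17.5%. The list's median was 0.19 in log2 at 20 mM. MXD1, a repressor that pairs with MLX or MAX, rose from 2.58 ± 0.266 FPKM (SD, n = 3) to 6.89 ± 1.13 at 10 mM and 7.25 ± 0.308 at 20 mM (log2 fold change 1.21, limma adjusted p = 2.85e-05). MYC, the growth-promoting factor of the network, rose from 41.0 ± 1.64 to 57.8 ± 1.21 FPKM at 20 mM (0.49, limma adjusted p = 8.88e-05). MXD4, a further repressor, rose (0.36, limma adjusted p = 0.0121) and MXD3 fell from 6.69 to 2.70 FPKM (-1.05, limma adjusted p = 0.000192). The remaining gene called higher was MNT, also a partner of MLX (0.42, limma adjusted p = 0.0225), named after its value was seen.

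**Figure D4:**
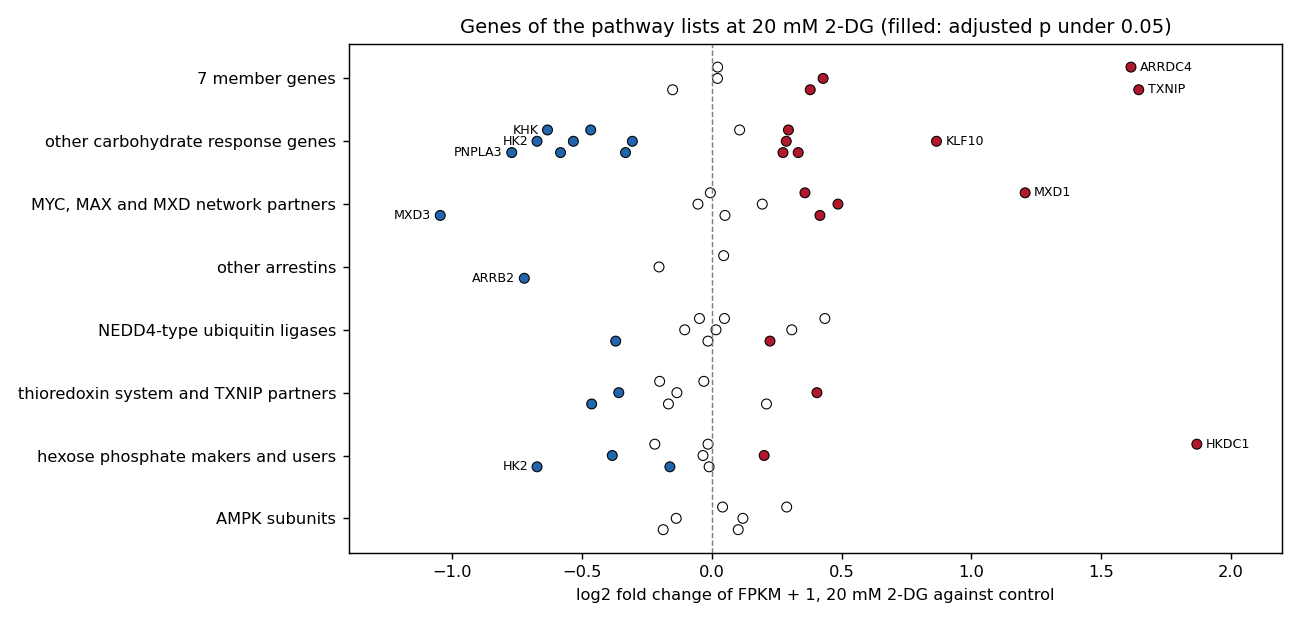
Log2 fold change of FPKM + 1 at 20 mM 2-DG against control for each tested gene of the lists (rows), with small vertical offsets only to separate points. Red points were called higher and blue points lower by limma's adjusted p, and open points were not called. The carbohydrate response genes other than KLF10 lie between -0.77 and 0.33, on this scale, which understates the change of low genes such as RGS16, and TXNIP lies at 1.65 and ARRDC4 at 1.62.

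Across the 9 libraries, the genes whose log2(FPKM + 1) followed TXNIP most closely by Pearson's r, among 10425 genes with a mean of at least 1 FPKM, were DNAJB9 (r = 0.997), CEBPG (0.995), ARRDC4 (0.995), GNPDA1 (0.995) and MMP1 (0.995). DNAJB9, a chaperone partner of the endoplasmic reticulum, averaged 10.9 FPKM without 2-DG, 35.7 with 10 mM and 43.1 with 20 mM. CEBPG is a leucine zipper transcription factor, GNPDA1 converts glucosamine phosphate to fructose phosphate, and MMP1 is a collagenase. For ARRDC4 the closest were DNAJB9 (r = 0.996), TXNIP (0.995), the receptor subunit IL3RA (0.994), the endocytic adaptor SH3KBP1 (0.993) and the endoplasmic reticulum prolyl isomerase FKBP14 (0.993). For ARRDC3 they were the glycosyltransferase GALNT3 (r = 0.988), MTMR10 (0.976), ZNF227 (0.967), the importin KPNA4 (0.967) and the translation termination factor GSPT1 (0.961). TXNIP had an r of 0.82 with ARRDC3, 0.85 with ARRDC2, 0.06 with MLXIP, 0.27 with MLXIPL and -0.90 with MLX. The 9 points form 3 groups of libraries, so these values mostly order genes by the same group differences and are a description.

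The window search was also read the other way, from motif to transcript, after the TXNIP window had been seen. The 16 RefSeq windows with paired half-sites belonged to 16 genes, of which 13 were tested. Leaving out TXNIP, which prompted the search, 4 of the other 12 were called higher at 20 mM, 3 lower and 5 were not called, beside 15.4% and 21.6% of all genes tested, and their median was -0.03 in log2. Among these 12 was GFPT1, the first enzyme of the hexosamine pathway (1.34, limma adjusted p = 5.04e-05), named after its value was seen.

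The libraries held between 30974968 and 40843638 counted reads. VIM, CD44, KRT18 and EGFR, which mark this line, summed to between 461 and 543 FPKM in all libraries, with VIM the highest. Of these 4, EGFR was called higher (0.86, limma adjusted p = 0.0103) and CD44 lower (-0.30, limma adjusted p = 0.00828) at 20 mM. Of the genes low or absent in triple-negative cells of mesenchymal type, ESR1 and PGR were near 0 (group means at most 0.014 FPKM), while ERBB2 fell from 8.81 to 5.76 FPKM and CDH1 from 0.365 to 0.0686 FPKM at 20 mM. The 9 markers of leukocytes, endothelium, fibroblasts and luminal cells summed to 5.32 to 5.58 FPKM in control libraries, 4.06 to 4.30 with 10 mM and 3.40 to 3.83 with 20 mM 2-DG. Of these markers, 3 of the 5 tested were called lower at 20 mM, beside 21.6% of all genes tested. Their part in the changes of the 7 genes was not tested. In bulk RNA, fewer cells of a type and less RNA per cell cannot be told apart.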

How the data were processed

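RNA from MDA-MB-231 cells was sequenced in 9 libraries, 3 per condition. The authors deposited FPKM values, one table per library. The submitters' processing notes name GRCh38 (hg38). The aligner, counter, annotation and strand setting are not given in the sources used here, and the study used DESeq2, which needs the authors' counts; these were not used here. Because values were FPKM, limma 3.58.1 (R 4.3.3) was applied to log2(FPKM + 1), with group means, all 9 libraries in one fit, eBayes with a variance trend, and Benjamini-Hochberg adjustment over 16570 genes. A call is an adjusted p under 0.05. Positions and overlaps are from GENCODE 29.

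Whole reads were recovered from the FPKM steps for 32805 of 32806 genes above 0 (tolerance 0.02 reads). For 16945 of these the GENCODE exon length gave whole reads. For the others the shortest length that did so was taken, which is weaker evidence, above all for genes with few reads. TXNIP, ARRDC4, ARRDC3, MLXIP and MLX were among the latter. The length found for TXNIP was 3604 bases beside 3625 in GENCODE, and for ARRDC4 4062 beside 4072. The value of 1 read on 1 kb was 0.0245 to 0.0323 FPKM. A gene was tested if its reads, scaled to the median total, came to 10 or more in 3 or more libraries and its raw reads summed to 15 or more. Counting intervals (95%) were exact.

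The members and lists were chosen with earlier results of these data known. Named genes were the 7 members, per list up to 4 tested genes with the lowest adjusted p at 20 mM, the fixed names KLF10, HK2, SLC2A1, DDIT4, TXN, TXNRD1, MYC, ARRDC1 and ARRDC3-AS1, and the 5 closest correlates of TXNIP, ARRDC4 and ARRDC3. The fits were tested on simulated data. Pseudocount, filter, scaling, test, thresholds, replicate block and single libraries were varied. Within groups, libraries correlated at 0.989 to 0.996 and differed by more than sampling noise. Protein sequences were not used here. Some genes that the naming rule would include are not reported here.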

Additional observations from a re-analysis of the deposited data

How the results depend on the processing

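Under 21 alternatives per comparison, TXNIP and ARRDC4 kept their direction and their call against the control at both doses, and remained uncalled between the doses. The log2 fold change of TXNIP at 20 mM lay between 1.59 and 1.74, and that of ARRDC4 between 1.57 and 3.39, with the highest values from fits that do not add 1 FPKM. Other members were less firm. At 20 mM ARRDC3 lost its call with no filter on low values (0.38, limma adjusted p = 0.0686; 32806 genes tested) and under the study's thresholds (0.38), as did ARRDC2 under those thresholds (0.32 at 10 mM, 0.43 at 20 mM), since both fold changes are under 1, which leaves 2 members called higher at 20 mM. At 10 mM ARRDC2 lost its call with no filter (0.32, adjusted p = 0.062) and with only the 2 groups compared (0.32, adjusted p = 0.0619), and ARRDC3 gained one with limma-voom and median-ratio factors (0.34, adjusted p = 0.0407), an alternative chosen after seeing the data. MLXIP, never called, was above 0 at 10 mM with median-ratio scaling (0.022), upper-quartile scaling (0.046) and limma-voom with median-ratio factors (0.023), and MLX between the doses was 0.0092 with upper-quartile scaling. Leaving out 1 library at a time gave 0.18 to 0.37 for ARRDC3 and 0.23 to 0.40 for ARRDC2 at 10 mM, 0.29 to 0.47 for ARRDC3 at 20 mM, -0.12 to 0.053 for MLXIP at 10 mM and -0.014 to 0.087 at 20 mM, -0.0022 to 0.068 for MLXIPL and -0.19 to -0.12 for MLX at 20 mM, and -0.021 to 0.14 for MLXIP between the doses. Members called lower at 20 mM then numbered 0 to 1, the 1 being MLX without control replicate 3. The cause of these shifts was not tested. Deviations from the group means correlated at -0.406 to 0.293 between same-numbered libraries and at -0.23 to 0.521 between other-numbered ones. The highest were control 1 with 10 mM 2 (0.521) and control 2 with 10 mM 1 (0.488). Control 3 with 10 mM 3 gave 0.293, and all other pairs of a control and a 10 mM library were negative. The replicate numbers as given thus showed no sign of pairing over the 3 groups. A pairing in another order, such as these control and 10 mM values would trace, was not tested. A block by these replicate numbers, which cannot take up a pairing in another order, changed no call of a member (TXNIP at 20 mM 1.65, limma adjusted p = 1.52e-05). With this block 2276 genes were called higher and 3270 lower at 20 mM, against 2544 and 3582 without it. With upper-quartile scaling these were 3277 and 2780. Of 1260 counts over lists under alternatives, 108 moved by more than 1.5 times. Depth limits ARRDC4 most, at 31 to 59 reads in the control.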
